A study of Mus musculus with 9 samples.

Results

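The array used here carried 3457 probes to exons of mouse long intergenic noncoding RNAs (lincRNAs), and the 828 described below were chosen by their signal, which the scanner software marked well above background on all 9 arrays. Their levels are therefore given as a description with no test. LincRNAs are transcripts that lie between protein-coding genes and carry no long open reading frame. Many are spliced, several are known to guide chromatin-modifying complexes or to act as scaffolds in the nucleus, and their levels often differ sharply between tissues and between cell states. In the vessel wall, individual lincRNAs are known to influence smooth muscle cell and endothelial cell state.

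The tissue was abdominal aorta of male mice, in 3 groups of 3 arrays each. Mice of the control group are titled wild type. The CaPO4 group consisted of mice in which an abdominal aortic aneurysm was modelled with calcium phosphate. The naringenin group is labelled only with naringenin, a citrus flavonoid, and the series' design text describes it as mice with an aneurysm that were given it. Strain, age, dose and time are not given in the sources used here. Each group is described as a mixture of 5 aortas, but not whether an array held a pool, 1 animal or a repeat of 1 pool, so the p-values may measure technical spread only. Before labelling with the dye Cy3, ribosomal RNA had been depleted and the remainder copied from random primers along the length of the transcripts. In such bulk tissue, fewer cells of a type and less RNA per cell cannot be told apart.

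Each exon is named by MM9LINCRNAEXON, a number and a sign, and is written below as, for example, exon 11881- for MM9LINCRNAEXON11881-. A gene, a position and a probe sequence are not paired with these names in the files used here, so no host transcript is named. The sign is the strand as the probe name gives it, and its relation to the genome's strand is not given in the sources used here. Levels are log2 intensity relative to the 75th percentile of the array, so that 0 is the 75th percentile and each step of 1 is a 2-fold difference. A probe's signal depends on its sequence as well as on the amount of RNA, so a difference in level between 2 probes is a difference in signal and not in transcript number.

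Some arrays stood apart from the others of their group. Over the 828 exons, CaPO4 1 and CaPO4 3 correlated across exons at r = 0.994, with 0.725% of exons over 2-fold apart. CaPO4 2 correlated with these at 0.815 and 0.821, with 49.0% and 48.4% of exons over 2-fold apart, but with naringenin 1 and 2 at 0.971 and 0.970, with 8.70% and 9.07% apart. Among the naringenin arrays r was 0.995 for the first pair and 0.934 and 0.936 for naringenin 3, and among the controls it was 0.985 to 0.990. Amy2a5, which encodes pancreatic amylase and was the only 1 of 20 pancreatic acinar markers named on the array, was at 0.10 to 0.70 in the controls. In CaPO4 it read 2.03, 11.05 and 2.04, with the high value on CaPO4 2, and in naringenin 9.93 to 11.12. Ccl21b and Ccl21c, near-identical chemokine genes of lymphatic vessels and the 2 of 7 lymphatic markers named, lay between 4.93 and 5.58 on the controls and between 7.58 and 9.71 on the other arrays, where CaPO4 2 was the highest. Of 5 male germ cell markers, Ssty1 and Ssty2 were named, multi-copy genes of the Y chromosome expressed in the testis. Ssty1 was at -0.51 to -0.20 in control, at 0.48, 2.33 and 0.50 in CaPO4 and at 2.07 to 2.80 in naringenin, and Ssty2 at -0.86 to -0.55, then 0.89, 2.81 and 0.65, then 2.19 to 3.41. Both were thus highest in naringenin and on CaPO4 2. None of the listed smooth muscle or endothelial markers was named on the array, so the labelled tissue could not be checked. The controls were scanned in a scan of their own, CaPO4 1 to 3 and naringenin 1 and 2 in another, and naringenin 3 alone, so control and scan cannot be told apart. The part of the array CaPO4 2, of the other cell types and of the scans in the results below was not tested, and results are given with and without CaPO4 2 where it changes them.

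Detection separated the lincRNA exons into 828 on all arrays, 2059 on 1 to 8 arrays and 570 on none. The share on all arrays, 23.95%, lay below that of all 59709 probes, 32.3%, and above that of the other lincRNA elements of the design, 14.2% of 691 probes named mouselincRNA and 11.8% of 1217 named humanlincRNA. The number of lincRNA exons well above background ranged from 970 on CaPO4 3, the dimmest array with a 75th percentile of intensity of 43.7, to 2756 on naringenin 3, the brightest with 239. An exon that fell below background on 1 dim array was thus left out, whatever its level elsewhere.

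The 828 exons had a median level of 0.90 over the 9 arrays, with quartiles of -0.08 and 2.57. All 19283 probes that were well above background on all arrays, called the detected probes below, had a median of 1.12, with quartiles of -0.07 and 3.05. The exons' median on single arrays lay between 0.81, on CaPO4 2, and 1.17, on control 3, so that no array shifted them as a class by more than a small part of their spread. The + exons spread wider than the - exons, with an upper quartile of 2.94 against 2.36 and medians of 0.94 and 0.88.

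**Figure D1:**
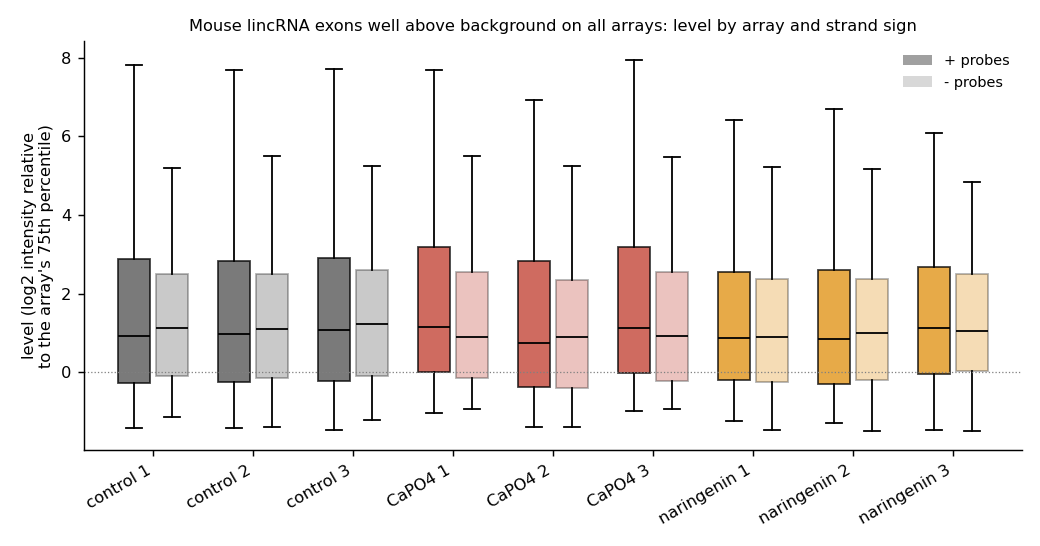
Level (log2 intensity relative to the array's 75th percentile) of the 410 + and 418 - lincRNA exons on each of the 9 arrays. Boxes span the quartiles with the median as a line, whiskers run from the 5th to the 95th percentile, and the + exons reach higher than the - exons on every array.

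The brightest exons carried signals near the top of the array's range. In the order of replicates 1 to 3, exon 10151+ had levels of 9.88, 9.88 and 9.95 in control, 9.37, 10.58 and 9.46 in CaPO4 and 10.11, 10.09 and 8.98 in naringenin. Exon 10074+ followed with 9.37, 9.41 and 9.28, then 9.44, 9.72 and 9.47, then 10.28, 10.34 and 9.52. The groups of exon 10151+ overlapped in every comparison, while the naringenin arrays of exon 10074+ lay above all the controls. Neither was called in any comparison. Exons 10435+, 11341+, 10608-, 10315-, 10465+ and 10664+ completed the 8 brightest, with mean levels from 9.19 down to 8.63, and 6 of the 8 were + probes.

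Among these bright exons, 3 were called between naringenin and control. Exon 10315- read 7.99, 7.89 and 8.09 in control, 8.51, 10.47 and 8.57 in CaPO4 and 10.22, 10.11 and 8.84 in naringenin, a rise of 1.73 ± 0.56 (standard error, SE, of the model, n = 3 arrays per group; limma, adjusted p = 0.0292). All its naringenin arrays lay above all its controls, but the call was lost without any 1 control and without naringenin 1 or 2 (adjusted p from 0.0649 to 0.0985), with no scaling (0.0761) and with a random scan effect (0.0692). Exon 10664+ fell by 1.19 ± 0.32 (adjusted p = 0.0129), from 9.06 to 9.15 on the controls to 7.58 to 8.14 on the naringenin arrays, which did not overlap, and the call was lost without control 2 (adjusted p = 0.0502) and with no scaling (0.098). Exon 11341+ rose by 2.41 ± 0.83 (adjusted p = 0.0442), but only control 1 had a value, since the spots of control 2 and 3 were marked as outliers, and the call was lost under 10 of 23 settings, without any 1 naringenin array among them (adjusted p from 0.0539 to 0.102).

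At the lower edge, the weakest exons were 11435-, 11004+ and 11808-, with mean levels of -1.49, -1.49 and -1.41. Exon 11435- ranged from -2.12 on control 2 to -0.89 on CaPO4 3, and its groups overlapped. Just outside the rule, the brightest exons missed on 1 array were 10064+, 10542+ and 11293+, with mean levels of 0.63, -0.03 and -0.07. All were not well above background on naringenin 2, where their levels were -3.41, -2.52 and -2.49. Exon 10064+ stood at 3.74, 3.74 and 3.92 on the controls, so an exon high in 1 group and low in another could fail the rule while a weak but even exon passed it.

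Several exons hardly varied. Exon 11840- had the smallest range over the 9 arrays, 0.47, with 1.61, 1.68 and 1.62 in control, 2.08, 2.02 and 2.07 in CaPO4 and 2.01, 2.00 and 1.80 in naringenin. Its controls lay below all other arrays, but the change between CaPO4 and control was not called (0.42 ± 0.27, adjusted p = 0.284). The SE of the model takes in the spread of all 3 groups and of other probes. Exons 10554-, 11019+, 11141+ and 10699+ followed, with ranges of 0.50 to 0.56. The spread within a group differed between groups: the median SD over the exons was 0.13 in the controls, 0.57 in CaPO4 and 0.36 in naringenin. In CaPO4 it was 0.38 over the 207 weakest exons and 0.92 over the 207 brightest, while in the controls it was 0.20 and 0.09. CaPO4 2 lay over 2-fold outside both other CaPO4 arrays in 379 exons, above them in 161 and below them in 218.

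The comparison of CaPO4 with control asked which exons differed in the aneurysm. Of 824 exons that had a value in both groups, 93 were called higher and 81 lower in CaPO4 (limma, Benjamini-Hochberg adjusted p under 0.05 over all probes tested), which is 11.3% and 9.83% of them. Among all 37307 probes tested, 10.1% were called higher and 11.3% lower, and among the detected probes 11% were higher and 7.21% lower. The exons were therefore called higher about as often as the detected probes and lower somewhat more often, a difference that was not tested. Their median change was 0.09, against 0.15 for the detected probes, and single exons ranged from -4.30 to 3.22. The CaPO4 and control arrays did not overlap in 447 exons (54.2%), against 51.1% of the detected probes.

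The split of the calls depended on the scaling. With the array median in place of the 75th percentile, 135 exons were called higher and 57 lower, with the 75th percentile over detected probes 44 and 96, with normexp background correction 71 and 114, and with no scaling 4 and 222. Quantile normalization gave 96 and 110. Shares of the detected probes called are not given for these settings, so the counts do not set the exons apart from the array. The median change of the exons was 0.31, -0.27, -0.02, -1.02 and -0.07 in this order of settings, beside 0.37, -0.21, 0.01, -0.96 and -0.04 for the detected probes, so that the exons moved with the whole array each time.

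Among the exons that rose, exon 11881- had the largest change with all arrays. It had levels of 3.96, 4.09 and 3.93 in control, 6.57, 8.49 and 6.57 in CaPO4 and 7.87, 7.87 and 6.24 in naringenin. The lowest CaPO4 array lay over 2 units above the highest control, and CaPO4 2 stood above the other CaPO4 arrays. The rise was 3.22 ± 0.59, or 9.32-fold (adjusted p = 0.00724), and 2.58 without CaPO4 2 (adjusted p = 0.005054), where the other 4 rises named here were larger, at 2.66 to 3.36.

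Exon 10761- was at -1.26, -1.94 and -1.0 in control, at 2.08, 1.11 and 1.84 in CaPO4 and at 1.26, 1.42 and 0.73 in naringenin. Here CaPO4 2 was the lowest of its group and still above every control, and the rise was 3.07 ± 0.39, or 8.43-fold (adjusted p = 0.00248). The lowest lincRNA exon detected on the control arrays stood at -2.29 to -2.15, and with normexp the rise was 1.69 (adjusted p = 0.00227). Exon 10939- read 0.21, 0.19 and 0.48 in control against 2.97, 2.88 and 2.93 in CaPO4 and 2.62, 2.64 and 2.13 in naringenin. All 3 CaPO4 arrays agreed within 0.1, CaPO4 2 included, and the rise of 2.63 ± 0.29 was 6.21-fold (adjusted p = 0.00194). Exons 11881-, 10761- and 10939- stayed called under each setting tried, and the last rose by 1.52 with no scaling (adjusted p = 0.0355). Exon 10894+ rose from 2.19, 2.73 and 2.58 to 5.24, 4.40 and 5.23 (2.46 ± 0.34, adjusted p = 0.00314), a call that was lost with no scaling (1.34, adjusted p = 0.0753) and kept under each other setting.

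Exon 10484+ differed from these in the naringenin group. Its levels were -0.04, 0.03 and -0.12 in control, 2.82, 1.88 and 2.68 in CaPO4 and 0.32, 0.70 and -0.43 in naringenin. CaPO4 stood alone, with no overlap with either other group, and naringenin overlapped with control. It rose by 2.50 ± 0.39 in CaPO4 against control (adjusted p = 0.00414), fell by 2.26 ± 0.39 in naringenin against CaPO4 (adjusted p = 0.0233) and was not called between naringenin and control (0.24 ± 0.39, adjusted p = 0.629). The call of the fall was lost under 12 of 26 settings, while the rise stayed called under each setting tried.

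The exons with the largest falls in CaPO4 were at moderate to high level in the controls. Exon 11466+ had 6.33, 6.26 and 6.29 in control, 3.22, -0.44 and 3.19 in CaPO4 and 0.12, -0.45 and 0.94 in naringenin. CaPO4 1 and 3 lay between the other groups and CaPO4 2 lay among the naringenin arrays. The fall of 4.30 on the log2 scale (SE 0.85, adjusted p = 0.00928) was 19.7-fold, and it dropped by 3.09 without CaPO4 2 (adjusted p = 0.00115).

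The same shape held for the other large falls. Exon 10387- had 5.89, 5.76 and 5.82 in control, 2.95, -0.55 and 3.64 in CaPO4 and -0.71, -0.37 and 1.24 in naringenin. It fell by 3.81 ± 0.94 in CaPO4 (adjusted p = 0.0207), and by 2.53 without CaPO4 2 (adjusted p = 0.00909). Exon 10529+ had 6.41 and 6.40 on controls 2 and 3, with control 1 left out as an outlier spot, against 3.92, 1.00 and 3.60 and then 1.26, 0.80 and 2.85. Exon 11201+ had 6.91 and 6.78 on the same controls, against 4.64, 0.96 and 4.59 and then 1.33, 0.75 and 1.95. Both fell in CaPO4 on 2 control values, by 3.57 ± 0.88 (adjusted p = 0.0236) and by 3.44 ± 0.99 (adjusted p = 0.0387). Without CaPO4 2 the falls were smaller, with changes of -2.65 (adjusted p = 0.0162) and -2.23 (adjusted p = 0.00608). Exon 11427- fell by 3.41 ± 0.59 (adjusted p = 0.00589), from 4.84, 4.70 and 4.76 to 1.78, -0.14 and 2.41. In all of these, every CaPO4 array lay below every control, and CaPO4 2 lay at or near the naringenin levels. Exons 11466+ and 11427- stayed called under each setting tried. The calls of exons 10387-, 10529+ and 11201+ were lost without control 2 or 3 (adjusted p from 0.0598 to 0.141) and with a random scan effect (0.0824, 0.0798 and 0.113). All 3 were also lost in a fit of these groups alone (0.0501, 0.0516 and 0.0995). Those of exons 10387- and 11201+ were lost without control 1 (0.0684 and 0.0658). That of exon 11201+ was lost without any 1 naringenin array (0.0554 to 0.062) and with the 75th percentile over detected probes (0.0546). Exon 11201+ had no value on control 1, so leaving out that array or a naringenin array could not alter its change, only the shared spread and the adjustment.

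Without CaPO4 2, 289 exons were called between CaPO4 and control, 170 higher and 119 lower, which is 35.1% of them against 30.6% of the detected probes, and 167 of the 174 calls were kept. Leaving out control 1, 2 or 3 left 61, 60 and 70 calls, and a random scan effect left 63. Shares of the detected probes are not given for these settings, so the losses do not set the exons apart from the array.

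**Figure D2:**
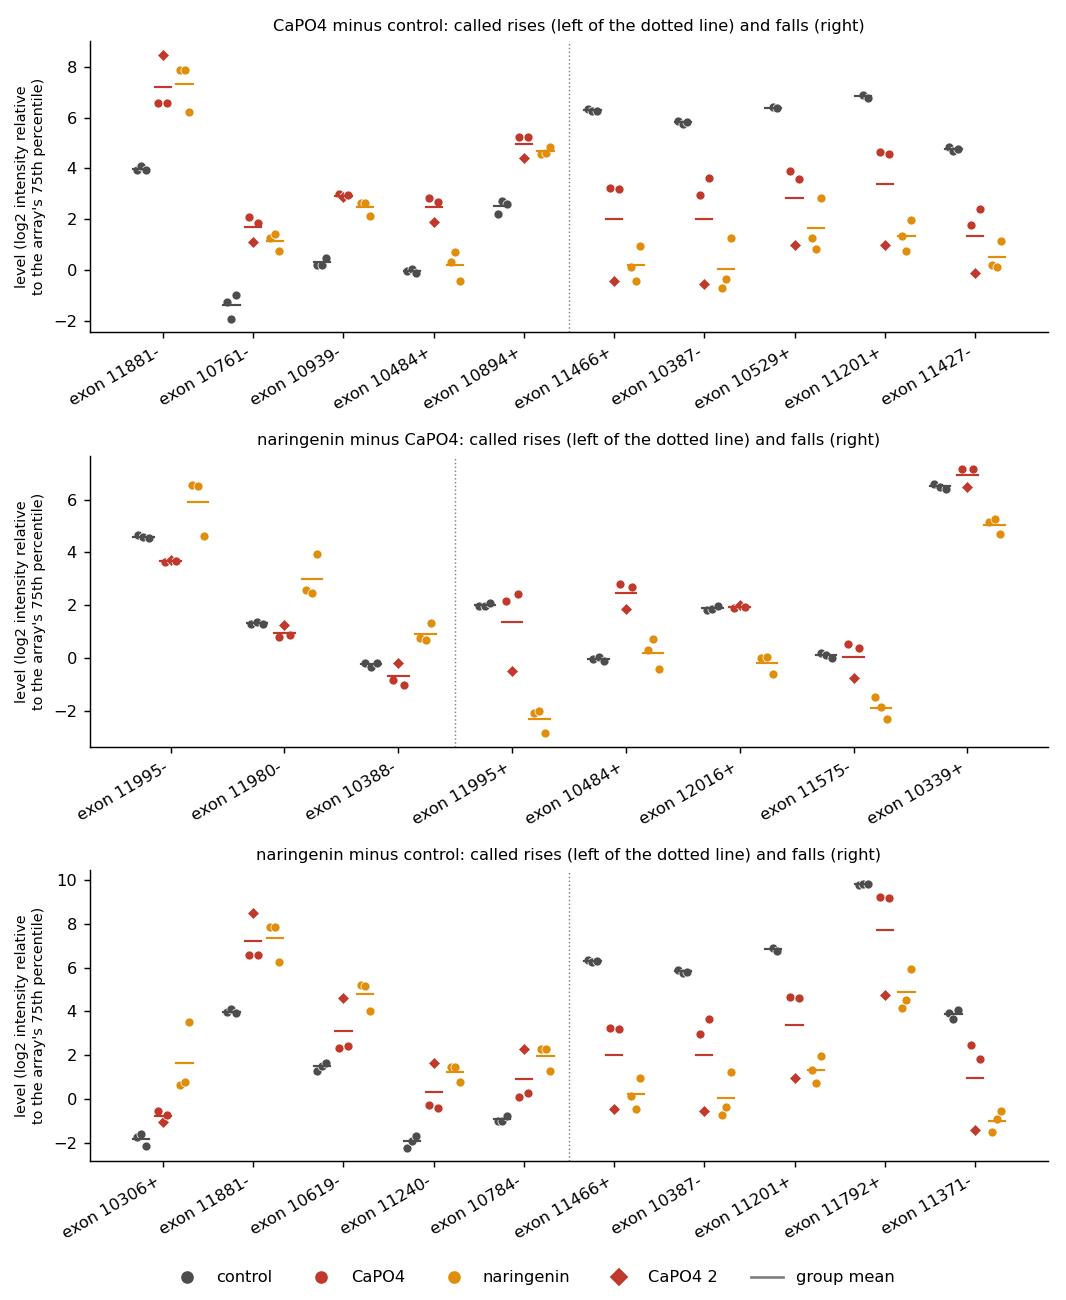
Level of the exons with the largest called changes in each comparison, on each array, with group means as lines and CaPO4 2 as a diamond. In the falls against control CaPO4 2 sits with the naringenin arrays, while in exon 10939- it sits with CaPO4 1 and 3.

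Naringenin against CaPO4 asks what differed in aneurysm mice given the flavonoid. With all arrays, 3 of 828 exons were called higher and 8 lower, at 0.362% and 0.966%, beside 0.816% and 1.36% of all probes tested and 0.332% and 1.48% of the detected probes. The groups did not overlap in 214 exons (25.8%), against 22.7% of the detected probes. An unadjusted p under 0.05 was seen in 194 of 828 exons and in 4730 of 19283 detected probes. The median change was -0.05, as in the detected probes, and single exons ranged from -3.68 to 2.43.

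All 11 called exons separated the groups, CaPO4 2 included. Exon 12016+ had 1.83, 1.84 and 1.96 in control, 1.90, 1.99 and 1.94 in CaPO4 and -0.01, 0.05 and -0.61 in naringenin. CaPO4 overlapped with control (0.07 ± 0.30, adjusted p = 0.892), all CaPO4 arrays agreed within 0.1, and naringenin was lower on every array. It fell by 2.13 ± 0.30, or 4.39-fold (adjusted p = 0.0126), the smallest adjusted p among these exons.

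Exon 10339+, a bright probe, had 6.60, 6.49 and 6.42 in control, 7.16, 6.47 and 7.16 in CaPO4 and 5.16, 5.28 and 4.70 in naringenin. CaPO4 2 lay within the controls, and the naringenin arrays lay below both groups, a fall of 1.88 ± 0.32 from CaPO4 (adjusted p = 0.0236). Exon 11575- fell by 1.94 ± 0.40 (adjusted p = 0.0412), from 0.54, -0.76 and 0.36 on the CaPO4 arrays to -1.48, -1.87 and -2.33, with controls of 0.18, 0.13 and 0.01. The lowest lincRNA exon detected on naringenin 1 to 3 stood at -2.66, -2.08 and -4.32. The calls of exons 12016+, 10339+ and 11575- were lost under 7, 14 and 16 of 26 settings, that of exon 11575- with normexp among them (adjusted p = 0.15).

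Of the 3 rises, exon 11980- had 1.30, 1.36 and 1.29 in control, 0.79, 1.24 and 0.85 in CaPO4 and 2.57, 2.47 and 3.95 in naringenin, a rise of 2.04 ± 0.41 (adjusted p = 0.0386). Naringenin 3 was far above naringenin 1 and 2, which were still above all other arrays. Exon 10388- rose by 1.61 ± 0.34 (adjusted p = 0.0425), from -0.82, -0.19 and -1.04 on the CaPO4 arrays to 0.77, 0.69 and 1.32, with controls of -0.18, -0.34 and -0.18. Its CaPO4 1 and 3 values lay near the lowest lincRNA exon detected on those dim arrays, at -1.46 and -1.22. The calls of exons 11980- and 10388- were each lost under 16 of 26 settings, normexp (adjusted p = 0.122 and 0.0721) and no filter (0.0619 and 0.078) among them. The third rise, exon 11995-, and the largest fall, exon 11995+, belong to the 2 signs of 1 exon number and are described with the strands.

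These calls rested on the arrays included. Without CaPO4 2 there were 370 called exons, 146 higher and 224 lower, which is 44.7% of them against 48.1% of the detected probes, and all 11 calls were kept. Leaving out any other single array left 0 to 2 called exons in the limma fit: 1 without control 1, 2 or 3, 0 without CaPO4 1 or 3 (85 and 82 at an unadjusted p under 0.05), 0 without naringenin 1 or 2 (136 each), and 2 without naringenin 3. Within the scan that held the CaPO4 arrays and naringenin 1 and 2, 0 exons were called (53 at an unadjusted p under 0.05), and 2 were called with scan as a fixed block and 10 with it as a random one. For the counts without another array or by scan, shares of the detected probes are not given.

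Naringenin against control gave the most calls: 175 of 824 exons were higher (21.2%) and 200 lower (24.3%). The background was 22.7% higher and 23.2% lower over all probes tested, and 21.5% and 22.3% over the detected probes, so the exons' shares lay near it. The groups did not overlap in 606 exons (73.5%), against 70.6% of the detected probes. The median change was 0.09, against 0.07 in the detected probes, and single exons ranged from -6.09 to 3.45. With the 75th percentile taken over detected probes the split was 112 higher and 213 lower, and with no scaling 55 and 125. Shares of the detected probes called are not given for these settings either. This comparison shares its control arrays with that of CaPO4 and control, so the values of an exon in both are not independent.

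**Figure D3:**
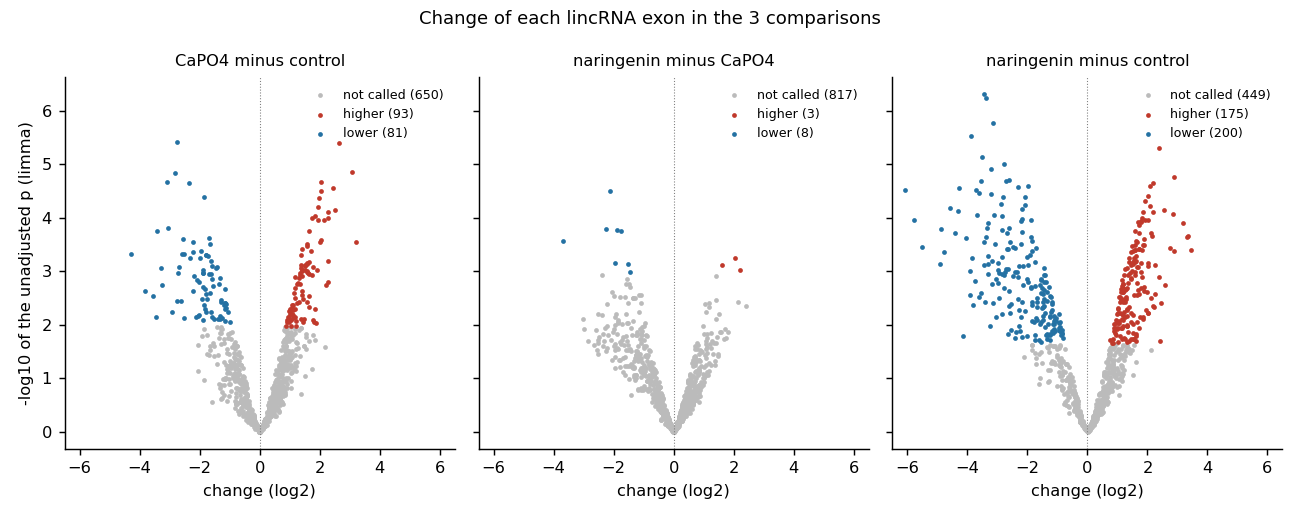
Change (log2) and -log10 of the unadjusted p of each lincRNA exon in the 3 comparisons, with exons called at an adjusted p under 0.05 in red (higher) and blue (lower). The legends give the counts, 93 and 81, 3 and 8, and 175 and 200, and the longest tail is that of the falls in naringenin against control, which reach -6.09.

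Of the exons higher in naringenin than in control, exon 10306+ had the largest change with all arrays, with -1.75, -1.58 and -2.14 in control, -0.57, -1.07 and -0.75 in CaPO4 and 0.62, 0.76 and 3.51 in naringenin. None of its groups overlapped, and naringenin 3 stood well above naringenin 1 and 2. The rise was 3.45 ± 0.67 (adjusted p = 0.0031), and 2.51 without naringenin 3 (adjusted p = 0.0022), where exon 11881- rose by 3.88 and exon 10619- by 3.70. Over the settings the rise of exon 10306+ ran from 2.29 to 3.96. Its controls lay near the lowest lincRNA exon detected on those arrays, at -2.29 to -2.15. Exon 11881-, which rose in CaPO4, rose by 3.34 ± 0.59 here (adjusted p = 0.00222).

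In the next 3 rises the array CaPO4 2 lay apart from CaPO4 1 and 3. Exon 10619- had 1.30, 1.52 and 1.63 in control, 2.33, 4.60 and 2.44 in CaPO4 and 5.19, 5.17 and 4.01 in naringenin, and rose by 3.31 ± 0.59 (adjusted p = 0.00231). Exon 11240- had -2.24, -1.91 and -1.68, then -0.27, 1.66 and -0.41, then 1.47, 1.45 and 0.77, and rose by 3.17 ± 0.53 (adjusted p = 0.00175). In exon 10784- the values were -1.01, -0.99 and -0.78, then 0.08, 2.29 and 0.29, then 2.30, 2.27 and 1.30, with a rise of 2.88 ± 0.56 (adjusted p = 0.00319). In all 3, CaPO4 2 lay within or above the range of the naringenin arrays, while CaPO4 1 and 3 lay between control and naringenin. All 5 of these rises stayed called under each setting tried. That of exon 11240-, whose controls also lay near the lowest lincRNA exon detected on those arrays, ran from 1.82 to 3.40.

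The largest falls were deeper than the largest rises were high. Exon 11466+ fell by 6.09 ± 0.85, or 68.0-fold (adjusted p = 0.000957), and exon 10387- by 5.77 ± 0.94, or 54.6-fold (adjusted p = 0.00162). Exon 11201+ fell by 5.50 ± 0.99 on 2 control values (adjusted p = 0.00288). Exon 11792+, at 9.76, 9.84 and 9.79 one of the brightest on the controls, had 9.24, 4.76 and 9.18 in CaPO4 and 4.17, 4.53 and 5.93 in naringenin. CaPO4 1 and 3 lay just under the controls and CaPO4 2 lay with naringenin, so that its fall of 4.92 ± 1.03 between naringenin and control was called (adjusted p = 0.00442) and its fall between CaPO4 and control was not (2.07 ± 1.03, adjusted p = 0.169). Exon 11371- had 3.92, 3.65 and 4.05, then 2.48, -1.44 and 1.84, then -1.52, -0.92 and -0.56, and fell by 4.87 ± 0.83 (adjusted p = 0.00193). These falls, too, stayed called without each single array in turn and under each other setting tried.

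The order of the 3 group means placed CaPO4 between control and naringenin in 467 of 824 exons (56.7%), naringenin in the middle in 191 (23.2%) and control in the middle in 166 (20.1%). Over the detected probes these shares were 59.2%, 21.8% and 18.96%. The exons rose from control over CaPO4 to naringenin in 238 cases and fell in that sequence in 229. A naringenin mean between those of control and CaPO4 was seen in 114 exons that were highest in CaPO4 and 77 that were lowest there. Without CaPO4 2, CaPO4 was in the middle in 45.6% of the exons and 48.3% of the detected probes, control was in the middle in 30.6% of the exons, and 620 exons kept their order. With no scaling the share with CaPO4 in the middle was 24.76%.

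**Figure D4:**
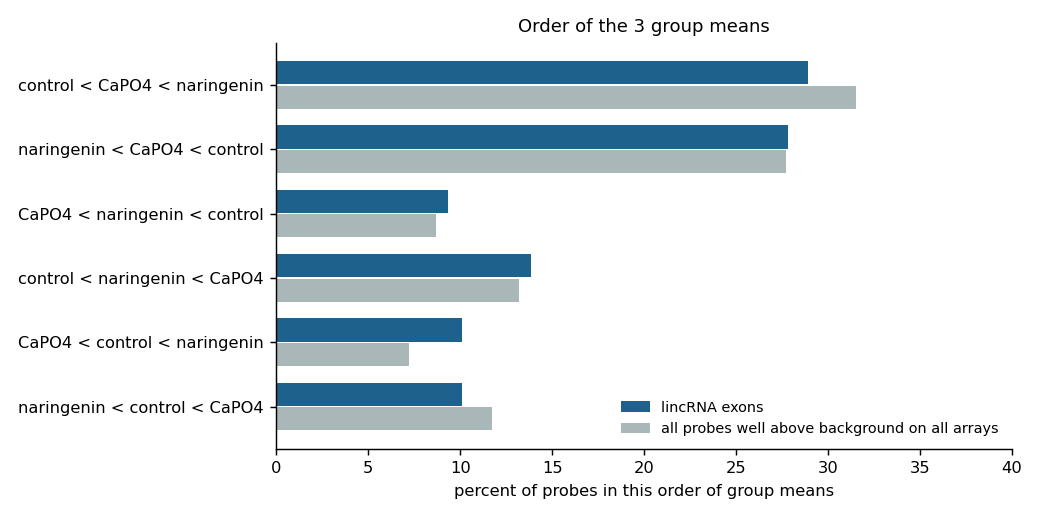
Percent of the 824 lincRNA exons (blue) and of the 19092 detected probes with a value in every group (grey) in each of the 6 orders of the 3 group means. The orders with CaPO4 in the middle hold 28.9% and 27.8% of the exons and 31.5% and 27.7% of the detected probes.

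In 101 exons (12.3%), no group overlapped with another, against 9.76% of the detected probes. Of these, 48 rose from control over CaPO4 to naringenin, 25 fell in that sequence, 14 and 6 had naringenin in the middle, and 4 and 4 had control in the middle. Of the 1864 detected probes without overlap, 619 rose and 778 fell in that sequence, 156 and 61 had naringenin in the middle, and 56 and 194 had control in the middle; the difference was not tested. Exon 10906+ was the clearest stepwise fall, with 5.62, 5.29 and 5.52 in control, 3.99, 3.63 and 3.76 in CaPO4 and 2.23, 2.22 and 1.68 in naringenin. CaPO4 2 lay with its own group, and a gap of 1.30 or more parted each group from the next. It was called lower in each comparison, by 1.68 ± 0.30 in CaPO4 against control (adjusted p = 0.00678), 1.75 ± 0.30 in naringenin against CaPO4 (adjusted p = 0.0243) and 3.43 ± 0.30 in naringenin against control (adjusted p = 0.000335). The call in naringenin against CaPO4 was lost under 13 of 26 settings, while the calls against control stayed under each setting tried.

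Exon 10689- was the clearest stepwise rise, with -0.28, -0.24 and -0.14 in control, 0.50, 0.52 and 0.47 in CaPO4 and 1.43, 1.57 and 2.73 in naringenin. The CaPO4 arrays were nearly equal, and the smallest gap between groups was 0.61. Only the change between naringenin and control was called (2.13 ± 0.37, adjusted p = 0.00209). Among exons with naringenin in the middle, exon 10205- had 0.42, 1.22 and 1.39 in control, 2.47, 2.54 and 2.70 in CaPO4 and 1.77, 1.76 and 2.19 in naringenin. It rose by 1.57 ± 0.34 in CaPO4 against control (adjusted p = 0.0131), a call lost without control 1 (adjusted p = 0.0598), with no scaling (0.45, adjusted p = 0.589) and with the 75th percentile over detected probes (adjusted p = 0.058), and its lower level in naringenin than in CaPO4 was not called (-0.67 ± 0.34, adjusted p = 0.232).

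Exon 10187+ showed the reverse, lowest in CaPO4, with 0.07, -0.06 and 0.07 in control, -1.38, -1.07 and -0.94 in CaPO4 and -0.40, -0.53 and -0.56 in naringenin. Its values on CaPO4 1 and 3, the dimmest arrays, lay near the lowest lincRNA exon detected there, at -1.46 and -1.22, and on CaPO4 2 that exon stood at -2.71. The groups did not overlap, and CaPO4 was called lower than control (-1.16 ± 0.28, adjusted p = 0.0198) while naringenin was not called against CaPO4 (0.63 ± 0.28, adjusted p = 0.184). The call was lost without any 1 control and without CaPO4 1 (adjusted p from 0.0532 to 0.0759), with normexp (-0.44, adjusted p = 0.0822) and with a random scan effect (adjusted p = 0.0645). Exons 11535+ and 10575+ had control in the middle with gaps of 0.07 and 0.21, and neither was called in any comparison.

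The design held 1729 exon numbers, 1728 of them with both signs, so that the opposite sign serves as a second probe to the same number. Of the + probes 410 (23.7%) and of the - probes 418 (24.2%) were well above background on all arrays. They belonged to 721 exon numbers, of which 107 had both signs among the 828 exons, 303 the + sign alone and 311 the - sign alone. Where 1 sign was detected throughout, the other was well above background on no array in 126 of 614 numbers and on 1 to 8 arrays in 488.

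In the 107 numbers with both signs, the signals were mostly unequal. They were over 2-fold apart in 85 and over 8-fold apart in 51, with a median absolute difference of 2.40. The + probe was brighter in 53 and the - probe in 54, and the same sign was brighter on every array with a value in 73. Of the 100 numbers with both signs measured on all 9 arrays, it was the same sign throughout in 67. Across the 107 numbers the levels of the signs correlated at r = -0.26, a description over probes of the same arrays. All had passed the detection rule on both signs, which sets a lower limit to both levels.

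Exon number 10608 had the largest difference, with the - probe at a mean of 9.09 and the + probe at 0.09, so that + minus - ran from -7.80 to -10.46 on single arrays. This difference was -8.80 in number 10315, while in numbers 10261 and 10664 the + probe led, by 8.60 and 8.49. At the other end, the signs of numbers 11719 and 11068 differed in their means by -0.07 and 0.03. In number 11719 the + probe was the brighter on all CaPO4 arrays, by 0.57 to 0.82, and the - probe on all naringenin arrays, with + minus - at -0.83 to -0.99.

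**Figure D5:**
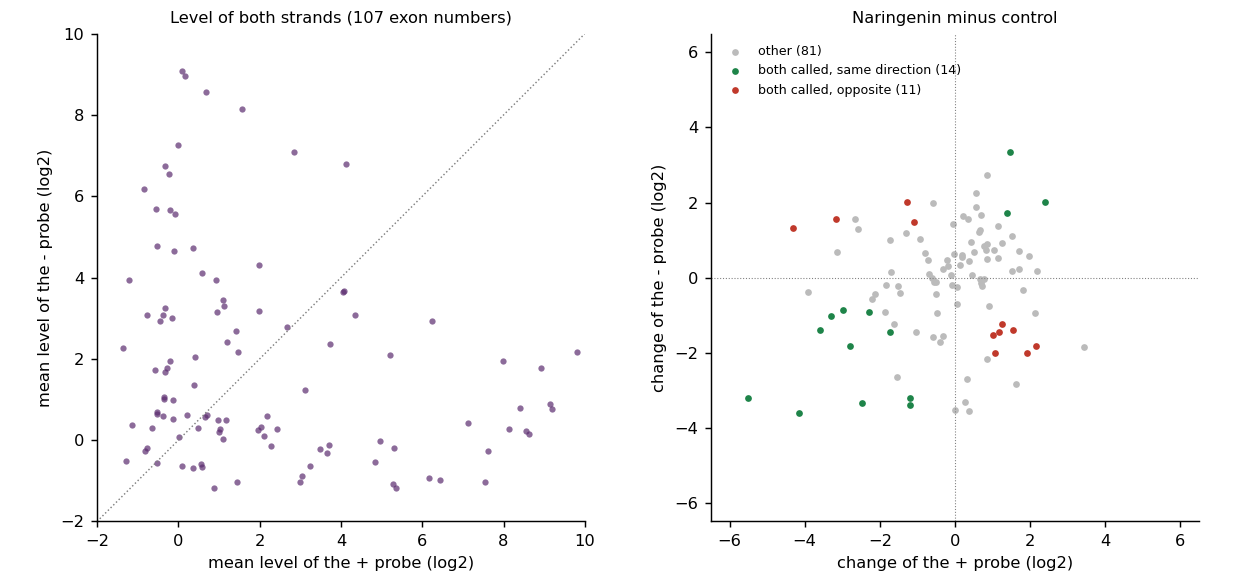
Left, mean level (log2) of the + and the - probe of each of the 107 exon numbers with both signs detected, with the line of equal level dotted. Right, change (log2) of both in naringenin against control, where 14 numbers were called in the same direction on both signs (green) and 11 in opposite directions (red).

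Both signs had a change against control in 106 of the 107 numbers, all but 12118, whose - probe had no control value. In CaPO4 against control, 0 of these were called in the same direction on both signs, 1 in opposite directions, and 32 on 1 sign alone. In naringenin against control, 14 were called in the same direction, 3 higher and 11 lower, 11 in opposite directions and 45 on 1 sign alone, number 12118 among the last. Of all 824 exons, 21.2% were called higher and 24.3% lower there, and the changes of both signs correlated at r = 0.18. Pairs of unrelated probes were not counted, so these counts do not set the signs of a number apart from other probes. Counts of the pairs without CaPO4 2 are not given. In naringenin against CaPO4, 1 number was called in opposite directions and 2 on 1 sign alone.

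That number was 11995, the clearest case of opposite strands. Its - probe had 4.65, 4.60 and 4.55 in control, 3.65, 3.73 and 3.69 in CaPO4 and 6.55, 6.53 and 4.64 in naringenin. Its + probe had 1.98, 1.99 and 2.07, then 2.18, -0.50 and 2.44, then -2.08, -1.99 and -2.86. On the - probe, all naringenin arrays lay above all CaPO4 arrays, but naringenin 3 lay within the controls. On the + probe, all naringenin arrays lay below all others. Its values on naringenin 1 and 2 were near the lowest lincRNA exon detected there, at -2.66 and -2.08, and on naringenin 3 that exon stood at -4.32. In naringenin against CaPO4 the - probe rose by 2.22 ± 0.48 (adjusted p = 0.0474) and the + probe fell by 3.68 ± 0.67, or 12.8-fold (adjusted p = 0.0286). Against control the - probe rose by 1.31 ± 0.48 (adjusted p = 0.0469) and the + probe fell by 4.32 ± 0.67 (adjusted p = 0.00137). The rise of the - probe against control was lost under 14 of 24 settings, without each single array other than CaPO4 2 and naringenin 3 and with quantile normalization among them (adjusted p = 0.0986 with the latter), while the fall of the + probe against control stayed called under each setting tried. In naringenin against CaPO4 the call was lost under 13 of 26 settings for the - probe and 14 of 26 for the + probe, whose change ran from -1.90 with normexp (adjusted p = 0.129) to -4.62 without CaPO4 2 (adjusted p = 3.51e-05). The difference + minus - was -2.48 to -2.67 in control, -1.48, -4.23 and -1.26 in CaPO4, and -7.50 to -8.63 in naringenin.

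Number 11048 moved likewise in naringenin against control. Its bright + probe had 8.65, 8.61 and 8.73 in control, 8.31, 5.37 and 8.05 in CaPO4 and 5.41, 5.47 and 5.61 in naringenin, a fall of 3.17 ± 0.65 (adjusted p = 0.00407). Its - probe rose by 1.57 ± 0.32 (adjusted p = 0.00415), from -0.40, -0.71 and -0.69 over 0.87, 0.83 and 0.97 to 1.15, 1.32 and 0.44. On the + probe CaPO4 2 lay with naringenin, and on the - probe it lay with CaPO4 1 and 3.

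The single number called in opposite directions between CaPO4 and control was 11244. Its + probe fell by 1.86 ± 0.51 (adjusted p = 0.0291), from 2.33, 1.94 and 1.90 to 0.32, -0.28 and 0.54, and its - probe rose by 1.12 ± 0.32 (adjusted p = 0.0325), from -0.30, -0.67 and -0.73 to 0.89, 0.12 and 0.65. The difference + minus - was 2.61 to 2.63 in control and -0.11 to -0.56 in CaPO4, and it was 1.31 on naringenin 3 but below 0 on naringenin 1 and 2. Without any 1 control neither was called (adjusted p from 0.0705 to 0.116), and the rise of the - probe was lost under 14 of 24 settings, falling to 0.008 with no scaling.

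By sign, CaPO4 against control had 56 higher and 38 lower calls among 409 + exons, with a median change of 0.17, and 37 higher and 43 lower among 415 - exons, with a median of -0.003. These were 13.7% and 9.29% of the + exons and 8.92% and 10.4% of the - exons, beside 11% and 7.21% of the detected probes. In naringenin against control, the + exons had 91 higher and 89 lower calls and the - exons 84 and 111. The shares were 22.2% and 21.8% of the + exons and 20.2% and 26.7% of the - exons, beside 21.5% and 22.3% of the detected probes. In naringenin against CaPO4, all 3 higher calls were on - exons, and 6 of the 8 lower calls on + exons. Of the detected probes 0.332% were called higher and 1.48% lower there. The exons' 11 calls in that comparison became 370 without CaPO4 2 and 0 to 2 without any other single array. Splits by sign without CaPO4 2 are not given. The difference between the signs was not tested. Exons on 1 sign with consecutive numbers, of which there were 218 pairs, were no more alike in level than 165 pairs whose numbers lay 50 apart, with median absolute differences of 1.78 and 1.57. Their changes differed less, by a median of 0.75 and 0.95 in CaPO4 against control and 1.01 and 1.43 in naringenin against control. In naringenin against CaPO4 these were 0.74 and 0.80. In this order of comparisons, changes correlated at r = 0.06, 0.07 and -0.08 in consecutive pairs. In pairs 50 apart r was 0.01, 0.02 and 0.07. In the same order, changes went in the same direction in 57.4%, 52.8% and 47.7% of consecutive pairs and in 49.7%, 54.5% and 43.6% of pairs 50 apart. The differences between these kinds of pair were not tested.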

How the data were processed

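The deposited scanner files hold background-subtracted spot intensity per array, which the authors produced in Agilent Feature Extraction (version 11.0.1.1, per the submitters' processing notes) with no scaling between arrays; other columns hold marks of 0 or 1 for control, outlier and detected spots, per the file headers. A deposited table of all arrays held the same intensity to within 0.0999%. Control and outlier spots were removed, log2 intensity was centred on each array's 75th percentile over the 59994 spots outside the controls, and spots of a probe were averaged. Probes well above background on at least 3 of 9 arrays (37498 of 59709) entered 1 limma fit of 3 groups (lmFit and eBayes, two-sided moderated tests, 3 comparisons), with Benjamini-Hochberg adjustment over every probe of the fit; an exon was called where the adjusted p was under 0.05. A detected probe is 1 well above background on all arrays. The members and lists were chosen with earlier results of these data known. Exons named were the 5 largest called rises and falls per comparison without overlap, the 8 brightest, the 5 least variable, the clearest of each order, the largest and smallest strand differences, opposite strands, and those at the edge of the rule. Outlier spots removed 28 values in 16 exons. On controls 1 to 3 these were 11, 8 and 8 values, and 1 was on naringenin 2. The 4 exons with no control value were among the 207 brightest, of which 203 were tested against control. The 0 saturated spots set no upper limit. The fit was tested on simulated data. The number of arrays limits the precision. R 4.3.3, limma 3.58.1, data.table (version 1.17.8), jsonlite 2.0.0, Python 3.11.15 and matplotlib 3.10.9 were used.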

Additional observations from a re-analysis of the deposited data

How the results depend on the processing

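The counts of called exons were 174, 11 and 375 in CaPO4 against control, naringenin against CaPO4 and naringenin against control. Shares of the detected probes are not given beside the counts below, which therefore do not set the exons apart from the array. Array weights gave 558, 606 and 670, and leaving out CaPO4 2 and naringenin 3 gave 537, 526 and 652, with 47.0% of the exons with CaPO4 in the middle. A random scan effect (correlation within scan 0.162) gave 63 in the first. In naringenin against CaPO4 the array median gave 24, the 75th percentile over detected probes 5, quantile normalization 21, no scaling 1, normexp on the median signals 6, no filter 5, a fit of these groups alone 0 (125 at an unadjusted p under 0.05), scan as a fixed block 2 and the shared scan alone 0 (53). Naringenin against control gave 180 with no scaling. The median change of CaPO4 against control, 0.09, became 0.314, -0.267, -0.066, -1.02 and -0.0234 with the array median, the percentile over detected probes, quantile normalization, no scaling and normexp. That of naringenin against CaPO4, -0.05, became -0.24 with the array median and 1.14 with no scaling, and that of naringenin against control, 0.09, became -0.24 with the percentile over detected probes and -0.0571 with quantile normalization. CaPO4 was in the middle in 24.76% with no scaling. The cause of these shifts was not tested. Leaving out 1 array in turn gave 60 to 289, 0 to 370 and 255 to 525 calls, and between 45.6% and 60.1% of exons with CaPO4 in the middle. Deviations of same-numbered arrays from their group means correlated at r = -0.167 to 0.237. Arrays of different numbers were not compared, so these values cannot decide whether the numbers pair the samples. The replicate block gave 148, 3 and 372 calls. No called change of a named exon reversed its direction under any setting. Several settings, such as no filter or a fit of 2 groups alone, could not reverse it, since they leave the change as it is. Signal near background limits the weakest exons.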
